A study of Mus musculus with 4 samples.

Results

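Tight junctions, desmosomes, adherens junctions and the polarity complexes were followed through 34 genes of mouse mammary basal cells, all 34 of which were found by symbol among the 34615 gene rows of each count table. The genes were taken as a named list of 12 tight junction genes, 9 polarity complex genes, 4 genes of adherens junctions and epithelial adhesion, and 9 desmosome genes. Mammary cells with floxed miR-205 alleles (KO, labelled miR205fl/flmTmGfl/fl cre+) were set against cells with wild-type alleles (WT, labelled WTfl/flmTmGfl/fl cre+). Cells of both genotypes carried the Rosa mTmG reporter, which turns from red to green fluorescence after Cre, were given Cre by adenovirus outside the body, and were transplanted into SCID-Beige mice, an immunodeficient strain, at 3 weeks of age. After 8 weeks, outgrowths were pooled, with 40 given as the number pooled, and green basal cells (CD24+, CD49f high) were sorted for RNA sequencing, with 2 KO and 2 WT libraries. Nothing states that the libraries of a genotype came from separate pools, so a p-value here weighs the genotypes against a spread that may be no more than technical.

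Tight junctions seal the space between epithelial cells: claudins, occludin and JAM proteins span the membrane, and ZO and cingulin proteins tie them to actin. The PAR, aPKC and Crumbs complexes set where these seals form and which side of the cell faces the lumen. Desmosomes are spot junctions in which desmogleins and desmocollins are linked through plakophilins and desmoplakin to keratin filaments. In the mammary gland, tight junctions are a feature of the luminal layer that lines the duct, while desmosomes also join basal cells to each other and to luminal cells.

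Gene counts ran from 47953972 to 60030932 per library, and values are counts-per-million (CPM) scaled by TMM, a correction for differences in RNA composition. KO replicate 2 stood apart from the other libraries: 12679 genes had a count there, against 18897 in KO replicate 1 and 18027 to 18139 in the WT libraries. Pearson correlations of log2(CPM + 1) over the 20652 genes with a count in any library had a range of 0.914 to 0.919 for pairs with KO replicate 2 and of 0.979 to 0.985 for all other pairs, given as a description. Mir205 had 0 counts in each of the 4 libraries, so the labels could not be checked on the targeted gene. The 8 basal markers measured each had a mean of 191.8 CPM or more. They summed to 11790 and 9813 CPM in KO against 9588 and 9254 CPM in WT, with 5 positive and 3 negative log2 fold changes. Krt5, the basal keratin, had 1773 and 1512 CPM in KO and 1219 CPM in each WT library. Trp63, the basal lineage factor, had 901 and 1309 CPM in KO against 1049 and 904 CPM in WT. The 3 negative ones, Myh11, Mylk and Cnn1, were lowest in KO replicate 2, at 1228, 408.5 and 121.9 CPM. The 14 luminal markers measured summed to 1558 and 2376 CPM in KO against 1340 and 1817 CPM in WT, and none of them was at 0 in all libraries. The 8 keratinocyte markers measured summed to 217 and 289 CPM in KO against 246 and 64.8 CPM in WT, nearly all of it Krt6a and Sprr1a, and the 6 fibroblast markers to 2683 and 2567 CPM in KO against 2626 and 2484 CPM in WT, led by Postn.

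The floxed microRNA binds messages through its seed, bases 2 to 8, and the mature strand is shown with the seed in capitals because it defines which junction transcripts carry a match. The sequence is RefSeq's, on chromosome 1 from 193507503 to 193507524, minus strand, in GRCm38.p6.
mmu-miR-205-5p: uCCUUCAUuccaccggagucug
The longest annotated 3′ UTR of each gene (GENCODE M21, GRCm38, sense strand of the transcript) was searched for the 7mer-m8 match ATGAAGG, the 8mer ATGAAGGA, which contains it, and the 7mer-A1 match TGAAGGA, which overlaps both. The 34 genes held 19 matches: 4 of the 8mer kind, 6 of the 7mer-m8 kind and 9 of the 7mer-A1 kind. A 7mer-m8 or 8mer match was found in 9 of 34 genes (26.5%), against 12.1% of the 12626 tested protein-coding genes whose 3′ UTR is annotated. Of the 4541 such genes with a 3′ UTR of 912 to 2391 bases, the middle range of the list, 11.6% had one. The 26.5% covers listed genes of all 3′ UTR lengths, so the 11.6% is not its match in length. A match of any kind was found in 7 of the 16 listed genes in that range, beside 22.5% of the 4541. The 9 genes with a 7mer-m8 or 8mer match were Cgnl1, Cldn8, Ctnnd1, Dsc3, Dsg2, Mpp5, Pard6b, Pkp2 and Tjp1. The strongest match of 7 of them is given with its flanks, with the matched bases in capitals.
Cgnl1 8mer: tggggctaactatATGAAGGAagata
Ctnnd1 8mer: agtcccaactctaATGAAGGAaggtt
Pkp2 8mer: ggacaggacagagATGAAGGAataaa
Tjp1 7mer-m8: tttgttggaactgATGAAGGttagcg
Cldn8 7mer-m8: agtgaaggttaaaATGAAGGctttaa
Pard6b 7mer-m8: aagtcttgatccaATGAAGGgcactg
Mpp5 7mer-m8: ggatttatccttaATGAAGGtagcca
In GRCm38 the capitals lie in the 3′ UTR at chr9:71627161-71627168 (minus strand) for Cgnl1, chr2:84600616-84600623 (minus) for Ctnnd1, chr16:16272682-16272689 (plus) for Pkp2 and chr7:65297427-65297433 (minus) for Tjp1. They lie at chr16:88561818-88561824 (minus) for Cldn8, chr2:168100293-168100299 (plus) for Pard6b and chr12:78840458-78840464 (plus) for Mpp5. A match describes the letters and is not evidence of binding.

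None of the 34 genes was called as different between KO and WT, which does not show that they were unchanged. In the edgeR quasi-likelihood test, fitted over 15364 genes that passed the low-count filter (all 34 listed genes among them), 0 of 34 were called at a Benjamini-Hochberg adjusted p under 0.05, where 0% of all tested genes were called. Adjusted p-values of the list ran from 0.9989 to 0.9997. At an unadjusted p under 0.05 there were 0 of the 34 genes and 147 of all tested genes (0.957%), and none of the 34 was called by DESeq2 (0.0260% of all tested genes) or limma voom (0%), with 2 and 0 of them under 0.05 before adjustment. The list held 18 positive and 16 negative log2 fold changes of KO over WT with a median of 0.02, beside a median of -0.14 and 42.8% positive over all tested genes. With upper quartile or total count scaling the split was 12 positive and 22 negative, with medians of -0.10 and -0.12 where those of all genes were -0.23 and -0.24. The values varied with level. With TMM scaling, listed genes at a WT mean of 100 CPM or more had 12 positive and 2 negative values. Their median was 0.12, beside 0.09 over all tested genes of that level. At 10 to 100 CPM there were 4 positive and 9 negative values, with a median of -0.31 beside -0.02. Under 10 CPM there were 2 positive and 5 negative values, with a median of -0.43 beside -0.5. KO and WT libraries did not overlap in 11 of the 34 genes (32.4%), the same share as the 32.4% of all tested genes. Both KO libraries lay above both WT libraries in 5 genes (13.2% of all tested genes) and below them in 6 (19.2% of all tested genes).

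**Figure D1:**
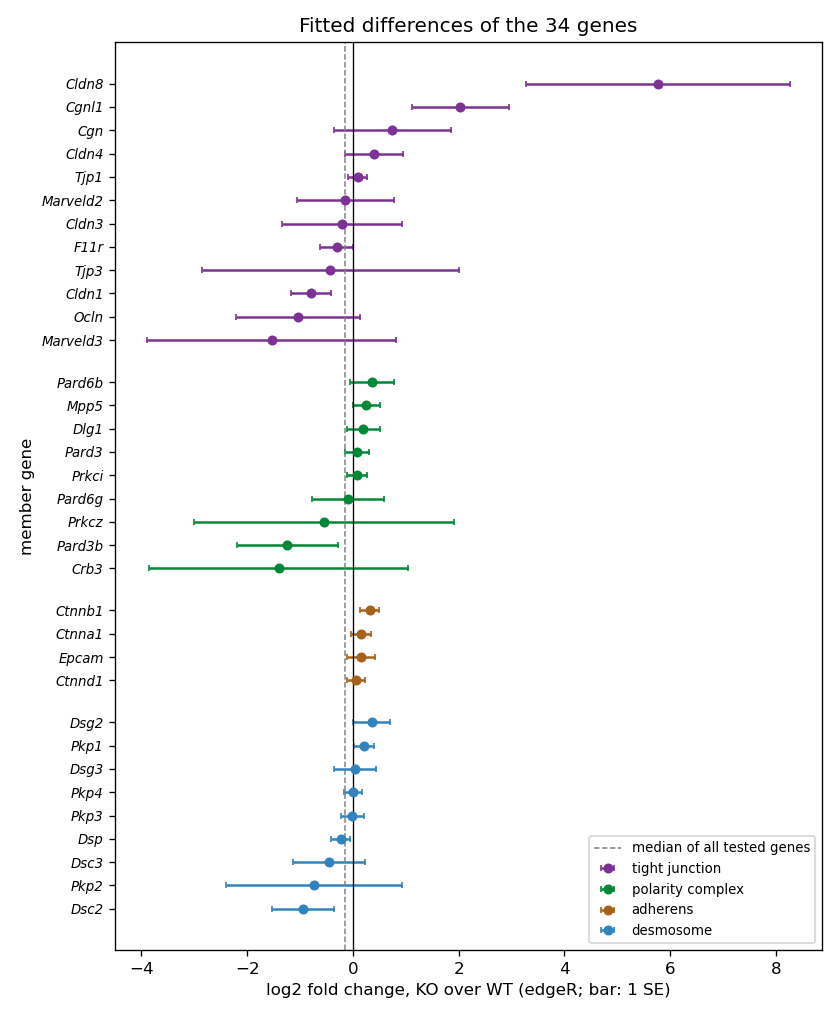
Fitted edgeR log2 fold change of KO over WT (x axis) for each of the 34 genes (y axis, by group), with bars of 1 SE; the dashed line is the median of all tested genes. The 4 adherens genes sit at 0.06 to 0.32 with short bars, and Cldn8 at 5.77 ± 2.50 and Cgnl1 at 2.03 ± 0.92 lie furthest to the right.

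Among the genes for membrane proteins of the tight junction, Cldn1, F11r and, at a lower level, Marveld3 lay below both WT libraries in both KO libraries. Cldn1 (ENSMUSG00000022512), a sealing claudin, had 33.0 and 53.4 CPM in KO against 68.7 and 81.7 CPM in WT. The groups did not overlap, and the log2 fold change was -0.80 ± 0.38 (SE; edgeR unadjusted p of 0.0899, adjusted p of 0.9989). KO replicate 1 lay further from WT than KO replicate 2, and the log2 fold change was -1.18 without KO replicate 2 (edgeR unadjusted p of 0.00322, adjusted p of 0.9998) and -0.50 without KO replicate 1 (unadjusted p of 0.101). F11r (ENSMUSG00000038235), which encodes the junctional adhesion molecule JAM-A, had 59.4 and 48.5 CPM in KO against 64.7 and 69.0 CPM in WT. Its groups also did not overlap, with a log2 fold change of -0.31 ± 0.31, of -0.17 without KO replicate 2 and of -0.47 without KO replicate 1. Tight junction genes as a group had 5 positive and 7 negative values and a median of -0.17 with TMM scaling, and 4 positive and 8 negative values with upper quartile or total count scaling. The median size of their log2 ratio to the WT mean in KO replicate 2 was 1.17, near the 0.96 of all tested genes, while the other groups of the list had 0.33 to 0.49. These groups also differed in level: only Tjp1 of the tight junction genes, but all 4 adherens genes, had a WT mean of 100 CPM or more. Over all tested genes the size was 0.39 at that level and 0.86 at 10 to 100 CPM.

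The other claudins had KO libraries that differed from each other. Cldn4 (ENSMUSG00000047501), a claudin of luminal and other simple epithelia, had 36.9 and 107 CPM in KO against 54.5 and 54.7 CPM in WT, so that the WT libraries lay between the KO libraries. Its log2 fold change was -0.56 without KO replicate 2 and 0.97 without KO replicate 1. Cldn3, a related claudin, had 2.13 and 5.94 CPM in KO against 3.85 and 5.41 CPM in WT, with overlapping groups. Here KO replicate 1 was the one further from WT, and the log2 fold change of -0.20 became -1.12 without KO replicate 2 and 0.35 without KO replicate 1. Cldn8 (ENSMUSG00000050520) had the smallest p of the list (edgeR unadjusted p of 0.0689, adjusted p of 0.9989) and its largest log2 fold change, 5.77 ± 2.50. It had 45 and 2015 counts in KO against 2 and 51 counts in WT, or 0.716 and 48.3 CPM in KO against 0.0355 and 0.857 CPM in WT. The difference rested on KO replicate 2, since KO replicate 1 lay between the WT libraries, and without KO replicate 2 it was 0.68.

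The messages of occludin and the MARVEL-domain proteins were least abundant in KO replicate 2. Ocln, which encodes occludin, had 13.6 and 1.58 CPM in KO against 10.5 and 20.6 CPM in WT. Marveld2, which encodes tricellulin of 3-cell contacts, had 34.2 and 5.71 CPM in KO against 19.7 and 24.3 CPM in WT, with KO replicate 1 highest and KO replicate 2 lowest. Marveld3, another MARVEL-domain gene of the tight junction, had 305 and 0 counts in KO against 494 and 318 counts in WT. In CPM these were 4.853 and 0 in KO against 8.767 and 5.345 in WT, so the groups did not overlap. For Ocln, Marveld2 and Marveld3 alike, the lowest value of the 4 libraries was that of KO replicate 2, where 22.2% of all tested genes had no count.

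On the cytoplasmic side of the tight junction, the ZO-1 message was even across libraries. Tjp1 (ENSMUSG00000030516), which encodes the scaffold ZO-1, had 587 and 649 CPM in KO against 571 and 586 CPM in WT. The groups parted by a narrow margin, with a log2 fold change of 0.10 ± 0.18 that took the opposite sign with upper quartile or total count scaling (-0.02 and -0.04). Tjp3, which encodes ZO-3, was barely detected, with 42 and 0 counts in KO against 32 and 20 counts in WT. Cgnl1 (ENSMUSG00000032232), which encodes paracingulin, a linker of junctions to actin and microtubules, had 34.7 and 255 CPM in KO against 33.9 and 37.0 CPM in WT. KO replicate 1 lay within the WT range and KO replicate 2 far above it, giving a log2 fold change of 2.03 ± 0.92 (edgeR unadjusted p of 0.0779, adjusted p of 0.9989) and -0.03 without KO replicate 2. Cgn, which encodes cingulin, had 3.20 and 14.7 CPM in KO against 3.82 and 6.86 CPM in WT, again with only KO replicate 2 above WT.

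Luminal markers also differed between libraries. In KO replicate 2, where Cldn4, Cldn8, Cgn and Cgnl1 were highest, 4 of the 14 luminal markers were over 2 times the WT mean (15.0% of all tested genes) and 4 were under 50% of it (44.0% of all tested genes). In KO replicate 1, 0 of the 14 were over 2 times the WT mean (5.34% of all tested genes) and 5 were under 50% of it (10.4% of all tested genes). Foxa1, a luminal transcription factor, had 9.44 and 89.1 CPM in KO against 13.1 and 6.54 CPM in WT. Kit, a luminal progenitor receptor, had 6.91 and 1.44 CPM in KO against 15.6 and 27.6 CPM in WT. The part of luminal cells in the tight junction values was not tested, and in sorted bulk samples fewer cells of a type and less RNA per cell cannot be told apart.

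**Figure D2:**
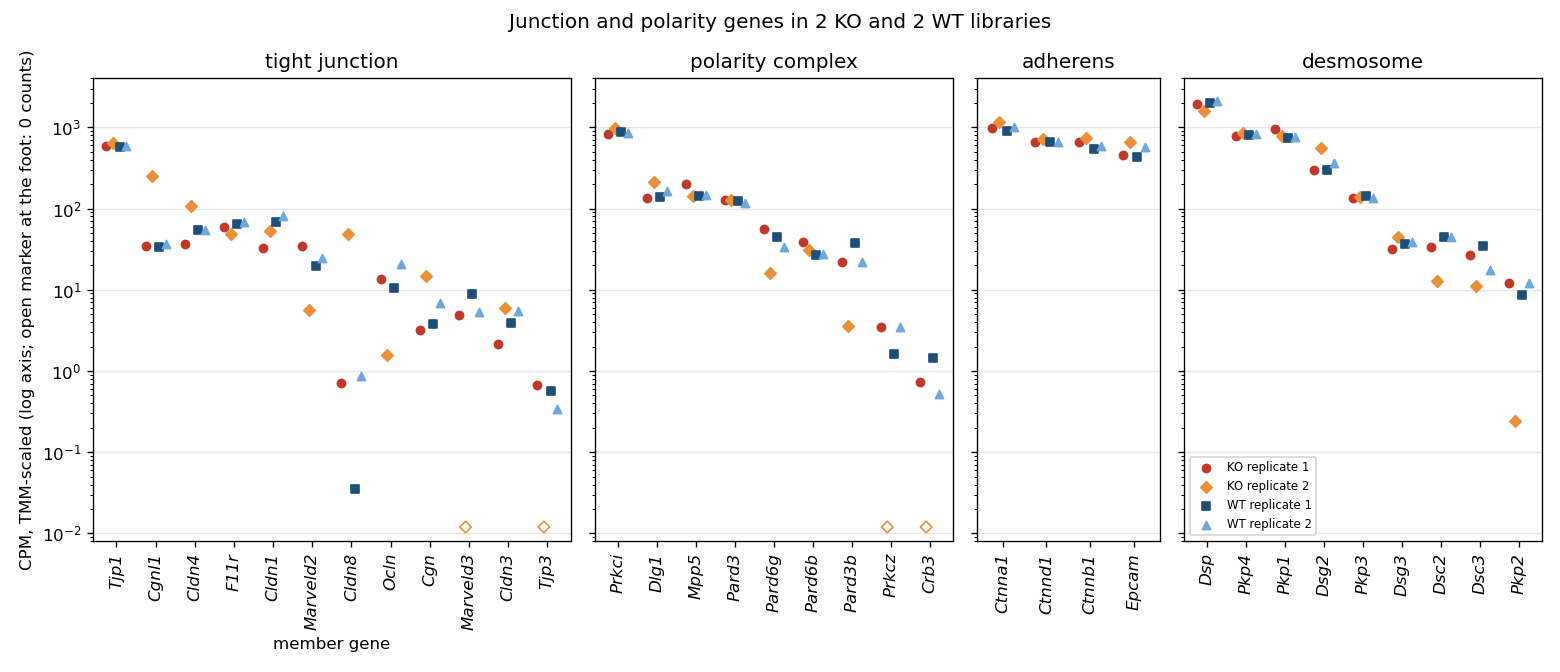
TMM-scaled CPM (y axis, log scale) of each of the 34 genes (x axis, by group and mean level) in 2 KO and 2 WT libraries, 1 marker per library; open markers at the foot stand for 0 counts. The adherens genes and the leading desmosome genes are tightly grouped. KO replicate 2 leaves the others among tight junction genes and among less abundant polarity and desmosome genes, such as Pard3b, Pard6g, Dsc2 and Pkp2. It has 0 counts for Marveld3, Tjp3, Prkcz and Crb3.

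Polarity genes were led by the atypical protein kinase C message Prkci, which did not part the genotypes. Prkci (ENSMUSG00000037643) had 830 and 994 CPM in KO against 885 and 850 CPM in WT (log2 fold change 0.07 ± 0.19), with the WT libraries between the KO libraries. Prkcz, the other atypical kinase, had 219 and 0 counts in KO against 91 and 207 counts in WT. Pard3 (ENSMUSG00000025812), the scaffold PAR3, had 126 and 127 CPM in KO against 125 and 116 CPM in WT, without overlap but with a log2 fold change of 0.07 ± 0.23. Its sign turned with upper quartile and total count scaling (-0.04 and -0.06). Pard3b (ENSMUSG00000052062), a PAR3 paralog, had 22.0 and 3.62 CPM in KO against 38.2 and 22.2 CPM in WT. KO replicate 1 lay just below WT replicate 2, and the log2 fold change was -1.24 ± 0.95, with -0.46 without KO replicate 2 and -3.06 without KO replicate 1.

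The PAR6 adaptors, which join the atypical kinases to PAR3 and the Crumbs complex, differed from each other. Pard6b (ENSMUSG00000044641) had 39.2 and 31.1 CPM in KO against 26.8 and 27.9 CPM in WT, with both KO libraries above WT and a log2 fold change of 0.36 ± 0.42, of 0.52 without KO replicate 2 and of 0.18 without KO replicate 1. Pard6g had 56.6 and 16.3 CPM in KO against 44.7 and 33.2 CPM in WT, with KO libraries on both sides of WT. Mpp5 (ENSMUSG00000021112), which encodes PALS1 of the Crumbs complex, had 200 and 145 CPM in KO against 143 and 146 CPM in WT. It was higher in KO replicate 1 than in the other libraries, with a log2 fold change of 0.25 ± 0.26, of 0.47 without KO replicate 2 (edgeR unadjusted p of 0.0289, adjusted p of 0.9998) and of 0.00 without KO replicate 1. Dlg1, a scaffold of the basolateral Scribble complex, had 134 and 214 CPM in KO against 139 and 165 CPM in WT. Crb3, the apical Crumbs protein of epithelia, had 46 and 0 counts in KO against 81 and 31 counts in WT. The 9 polarity genes had 5 positive and 4 negative values with a median of 0.07, and 3 positive and 6 negative values with upper quartile or total count scaling.

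The catenins, which link cadherins to actin, were abundant and close to each other in all libraries. Ctnnb1 (ENSMUSG00000006932), which encodes beta-catenin and also serves Wnt signaling, had 660 and 737 CPM in KO against 540 and 581 CPM in WT. Both KO libraries lay above both WT libraries, and the log2 fold change of 0.32 ± 0.18 did not pass the test (edgeR unadjusted p of 0.141, adjusted p of 0.9989). Without KO replicate 2 it was 0.24, and without KO replicate 1 it was 0.39. Ctnna1, alpha-catenin, had 975 and 1168 CPM in KO against 912 and 1007 CPM in WT, with overlapping groups and a log2 fold change of 0.16 ± 0.19. Ctnnd1, p120-catenin, which stabilises cadherins at the membrane, had 666 and 718 CPM in KO against 668 and 663 CPM in WT. Its log2 fold change of 0.06 ± 0.17 turned to -0.06 and -0.08 with upper quartile and total count scaling. Epcam, an epithelial adhesion molecule, had 460 and 651 CPM in KO against 425 and 575 CPM in WT, so the libraries of one genotype differed more than the genotypes did. All 4 log2 fold changes of this group were positive with TMM scaling, and 3 of 4 with upper quartile or total count scaling.

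The desmosomal cadherins were uneven. Dsg2 (ENSMUSG00000044393), the desmoglein of all desmosome-bearing epithelia, had 297 and 552 CPM in KO against 296 and 368 CPM in WT. KO replicate 1 was level with the lower WT library and KO replicate 2 above both, with a log2 fold change of 0.35 ± 0.35. Dsg3, a desmoglein of basal and stratified epithelia, had 31.6 and 45.1 CPM in KO against 36.1 and 38.9 CPM in WT, with the KO libraries on both sides of WT. Dsc2 (ENSMUSG00000024331), the widely expressed desmocollin, had 33.8 and 12.8 CPM in KO against 45.1 and 44.7 CPM in WT. Both KO libraries lay below WT, with a log2 fold change of -0.95 ± 0.59 (edgeR unadjusted p of 0.167, adjusted p of 0.9989), and KO replicate 2 was the lower. The log2 fold change of Dsc2 was -0.41 without KO replicate 2 and -1.81 without KO replicate 1. Dsc3, a desmocollin of basal layers, had 26.9 and 11.0 CPM in KO against 34.2 and 17.7 CPM in WT, with overlapping groups.

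Among the plaque proteins that tie these cadherins to keratin, desmoplakin lay below WT and plakophilin 1 above WT in both KO libraries, neither passing the test. Dsp (ENSMUSG00000054889), the desmoplakin gene, had 1924 and 1605 CPM in KO against 2018 and 2122 CPM in WT. The groups did not overlap, and the log2 fold change was -0.23 ± 0.18 (edgeR unadjusted p of 0.263, adjusted p of 0.9989), with -0.10 without KO replicate 2 and -0.37 without KO replicate 1. Pkp1 (ENSMUSG00000026413), the plakophilin of stratified epithelia, had 949 and 788 CPM in KO against 738 and 760 CPM in WT. Its groups did not overlap either, with a log2 fold change of 0.21 ± 0.19, of 0.34 without KO replicate 2 (edgeR unadjusted p of 0.0234, adjusted p of 0.9998) and of 0.07 without KO replicate 1 (unadjusted p of 0.607). Pkp4, a plakophilin relative also found at adherens junctions, had 776 and 850 CPM in KO against 794 and 826 CPM in WT, and Pkp3 had 134 and 141 CPM in KO against 143 and 134 CPM in WT. The KO libraries of Pkp4 lay on both sides of WT, and the fitted differences of both genes were -0.01 to 0.01 with TMM scaling. Pkp2 was low, with 757 and 10 counts in KO against 481 and 716 counts in WT. The 9 desmosome genes had 4 positive and 5 negative values and a median of -0.01, and 2 positive and 7 negative values with upper quartile or total count scaling.

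Levels of different genes were compared per length, as mean CPM over the 4 libraries divided by kilobases of annotated exon. Epcam was the most abundant on this scale at 241, followed by Dsp at 199, Pkp1 at 161, Prkci at 160 and Ctnna1 at 158. This order of the means did not hold in every library. In KO replicate 2, Ctnna1 at 182 and Prkci at 179 lay above Dsp at 166 and Pkp1 at 157, and in WT replicate 1, Dsp at 209 lay above Epcam at 194. Paralogs of one family lay far apart. Prkci at 160 compared with Prkcz at 0.340, Dsg2 at 45.8 with Dsg3 at 5.44, and Tjp1 at 76.6 with Tjp3 at 0.106. Of the listed claudins, Cldn4 stood at 34.8, Cldn1 at 12.2, Cldn8 at 5.30 and Cldn3 at 3.44. The mean of Cldn8 rested on KO replicate 2, with 0.304 and 20.5 in KO against 0.0151 and 0.364 in WT. The desmocollins were below Dsg2 on this scale, with Dsc2 at 6.46 and Dsc3 at 4.15. The order held for Prkci over Prkcz, Dsg2 over Dsg3 and Tjp1 over Tjp3 in each of the 4 libraries. Cldn4 was above Cldn1 in each of the 4 libraries, with 20.3 and 58.9 for Cldn4 and 6.82 and 11.0 for Cldn1 in KO, against 30.0 and 30.1 for Cldn4 and 14.2 and 16.9 for Cldn1 in WT.

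The KO libraries departed from WT by different amounts, and the departure was wider for genes under 100 CPM than for those above. Ratios of 1 library to the WT mean are given as log2 with 0.5 CPM added to both. For the 14 genes with a WT mean of 100 CPM or more, these ratios ran from -0.18 to 0.47 in KO replicate 1 and from -0.37 to 0.73 in KO replicate 2. Their median size regardless of sign was 0.09 and 0.18, beside 0.14 and 0.39 over the 2156 tested genes of that level. For the 13 genes with a WT mean of 10 to 100 CPM, the median size of the ratio was 0.41 in KO replicate 1 and 1.23 in KO replicate 2, beside 0.22 and 0.86 over the 5150 tested genes of that level. For the 7 genes under 10 CPM it was 0.39 in KO replicate 1 and 1.56 in KO replicate 2, beside 0.39 and 1.31 over 8058 tested genes. Between the WT libraries, the median size of the log2 ratio of one to the other was 0.08, 0.25 and 0.77 for the listed genes of these 3 levels, from the highest level to the lowest. Over all tested genes of these levels it was 0.14, 0.27 and 0.55. A ratio of 1 library to another is not the same measure as a ratio to the WT mean, so the sizes were not compared.

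Over the whole list, 11 of 34 genes (32.4%) were under 50% of the WT mean in KO replicate 2, where 44.0% of all tested genes were, and 2 were in KO replicate 1 (10.4% of all tested genes). These 2 were Cldn1 and Cldn3. The share in KO replicate 2 varied with level. At a WT mean of 10 to 100 CPM, 7 of 13 listed genes were under 50%, beside 1443 of 5150 tested genes. Under 10 CPM it was 4 of 7 beside 5226 of 8058, and at 100 CPM or more 0 of 14 beside 97 of 2156. Cldn8, Cgn and Cgnl1 were over 2 times the WT mean in KO replicate 2 (15.0% of all tested genes), and none of the 34 was in KO replicate 1 (5.34% of all tested genes). Without KO replicate 1, when KO replicate 2 is the only KO library, edgeR called 13 of the 34 genes (38.2%), where 34.9% of all tested genes were called. Of these, 4 were higher in KO (12.4% of all tested genes) and 9 lower (22.5% of all tested genes). The 4 higher were Cldn4, Cldn8, Cgnl1 and Dsg2, and the 9 lower were Ocln, Marveld2, Marveld3, Pard3b, Pard6g, Prkcz, Dsc2, Dsp and Pkp2. Without KO replicate 2, 0 of the 34 were called (0% of all tested genes), with Cldn1, Pkp1 and Mpp5 under 0.05 before adjustment.

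**Figure D3:**
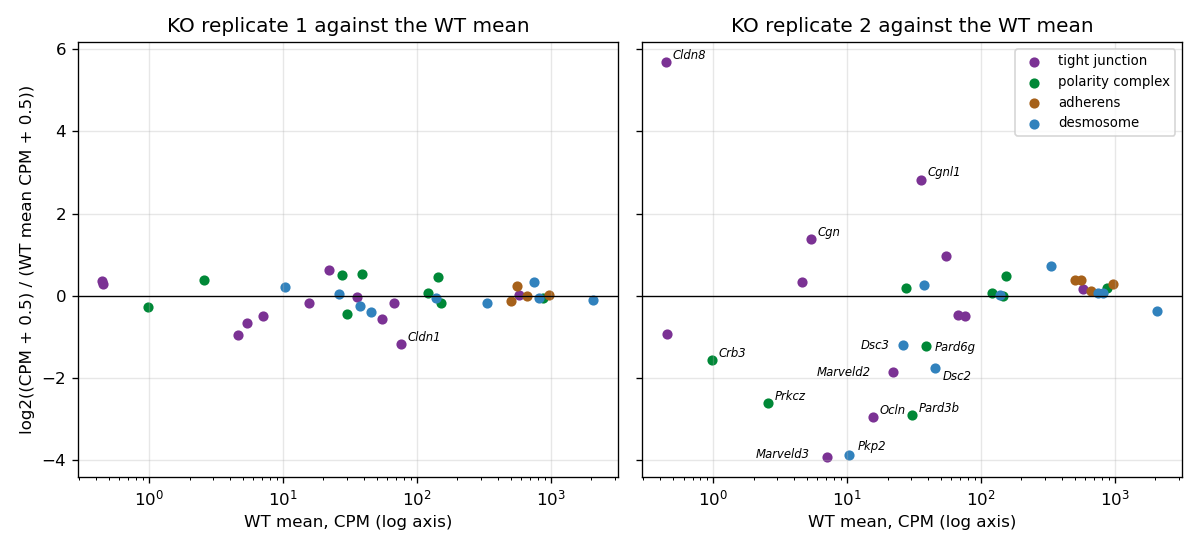
Log2 ratio of 1 KO library to the WT mean, with 0.5 CPM added to both (y axis), against the WT mean CPM (x axis, log scale) for the 34 genes, coloured by group; KO replicate 1 is on the left and KO replicate 2 on the right. Points above 100 CPM lie between -0.37 and 0.73 in both panels, while KO replicate 2 scatters widely among less abundant genes.

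Genes with a match to the microRNA seed were set beside those without, using the sequences shown above. Of the 9 genes with a 7mer-m8 or 8mer match, 7 had a positive and 2 a negative log2 fold change of KO over WT, with a median of 0.25 under TMM scaling. With upper quartile or total count scaling Tjp1 and Ctnnd1 turned negative, and the split was 5 positive and 4 negative with medians of 0.16 and 0.15, beside -0.10 and -0.11 over all tested genes with such a match. With TMM scaling, over all tested genes with such a match the median was 0 and 49.9% were positive, beside -0.14 and 42.7% for tested genes with no match. The 21 listed genes with no match had 9 positive and 12 negative values and a median of -0.09, and the 4 with a 7mer-A1 match alone (Cgn, Pard3b, Pkp1 and Prkcz) had 2 of each sign. Without KO replicate 2 the 9 genes had 7 positive values with a median of 0.05, but not in the same genes: Cgnl1 (-0.03) and Dsg2 (-0.16) were then negative and Dsc3 (0.05) and Pkp2 (0.23) positive. Over all tested genes with such a match the median was then 0.01 with 51.5% positive. The 21 listed genes without a match had 6 positive values with a median of -0.12 in that fit, beside -0.01 and 48.6% positive over all tested genes with no match. The 3 8mer genes whose sites are printed went separate ways: Cgnl1 at 2.03 ± 0.92, Ctnnd1 at 0.06 ± 0.17 and Pkp2 at -0.74 ± 1.66. Dsg2, which had 4 matches including an 8mer, stood at 0.35 ± 0.35. None of these genes passed the test, and the difference between the site classes was not tested.

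**Figure D4:**
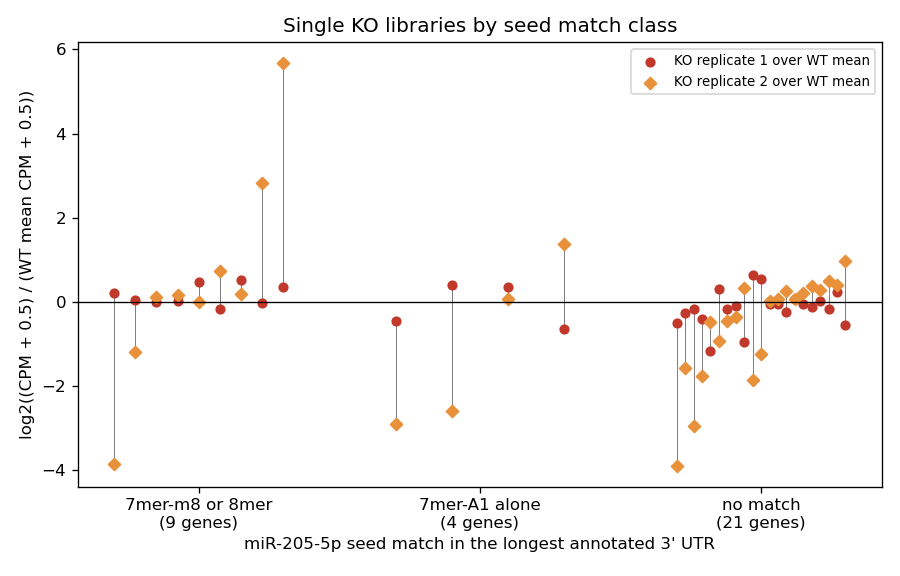
Log2 ratio of each KO library to the WT mean, with 0.5 CPM added to both (y axis), for the listed genes by class of miR-205-5p seed match (x axis: 9 genes with a 7mer-m8 or 8mer, 4 with a 7mer-A1 alone, 21 with none); grey lines join the 2 KO libraries of a gene. Wide gaps between the KO libraries of a gene occur in all 3 classes.

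Other genes of the same junctions and their epithelial regulators were not called either. Of 77 such genes listed, 71 matched a row and 62 passed the low-count filter. Of these, 0 were called higher and 0 lower in KO, where 0% of all tested genes were called. An edgeR unadjusted p under 0.05 was found for 2 of the 62, and for 0.957% of all tested genes. Signs were mixed, with 30 positive and 32 negative values and a median of -0.06. Cdh1, which encodes E-cadherin, the core of the adherens junction, had 1427 and 1835 CPM in KO against 1473 and 1563 CPM in WT (log2 fold change 0.10 ± 0.20). Vcl, vinculin, had 412 and 348 CPM in KO against 421 and 384 CPM in WT. Both genes overlapped between genotypes.

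Of the 10 most abundant other genes, 2 from each list, Perp, Lin7c, Cdc42 and Grhl3 had both KO libraries above both WT libraries, and the other 6 overlapped. Of all 62 tested, 12 lay above WT without overlap and 10 below, where 32.4% of all tested genes did not overlap. Amotl1, an angiomotin-family protein of tight junctions, had 1119 and 1000 CPM in KO against 913 and 1067 CPM in WT, and Cxadr, an immunoglobulin-like adhesion protein, had 459 and 586 CPM in KO against 506 and 355 CPM in WT. Perp, a desmosome protein regulated by p63, had 488 and 743 CPM in KO against 464 and 446 CPM in WT, and Ppl, periplakin, had 179 and 270 CPM in KO against 191 and 271 CPM in WT. The log2 fold change of Perp was 0.44 ± 0.26, which did not pass the test. Lin7c, a partner of PALS1, had 375 and 579 CPM in KO against 360 and 333 CPM in WT, and Cdc42, the small GTPase that activates the PAR6 complex, had 359 and 491 CPM in KO against 306 and 302 CPM in WT. In Lin7c and Cdc42 alike, KO replicate 2 was the higher KO library.

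The smallest p-values of these other genes were those of Grhl3, Crb2, Jam2 and Cdc42. Grhl3, a grainyhead factor of epithelial barriers, had 9.18 and 98.8 CPM in KO against 7.44 and 4.86 CPM in WT (edgeR unadjusted p of 0.0447). Crb2, a Crumbs family gene, had 11 and 59 counts in KO and 0 counts in each WT library, which allows up to 3 counts per library. Jam2, a junctional adhesion molecule known from endothelium, had 56.0 and 182 CPM in KO against 35.6 and 47.2 CPM in WT. In each of these 3 genes both KO libraries lay above WT and KO replicate 2 was the higher. The 6 vessel markers measured summed to 119 and 58.9 CPM in KO against 78.3 and 139 CPM in WT. Their sum was lowest in KO replicate 2, where Jam2 was highest, and Kdr, Emcn, Esam and Cldn5 were each lowest there. Cdh5 and Tek were not, with 42.11 and 8.461 CPM in KO replicate 2 against 41.99 and 3.815 CPM in WT replicate 1. The part of vessel cells in the Jam2 values was not tested. Grhl2, the relative of Grhl3 that drives epithelial junction genes, had 64.1 and 145 CPM in KO against 56.1 and 90.1 CPM in WT, with overlapping groups.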

How the data were processed

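RNA of sorted basal cells was sequenced after PicoPure extraction and NuGEN library preparation, per the labels' protocols. The authors deposited raw read counts as whole numbers, in a separate file for each library, with Ensembl gene identifiers. TopHat2 (2.02), HTSeq and the NCBIM37 (mm9) build are named per the submitters' processing notes. The annotation release and strand setting were not given in the sources used here, and overlapping or antisense genes may share reads. The 5 summary rows stayed out of library sizes and tests, with 57.59% to 61.52% of lines outside any feature. Symbols, exon lengths and 3′ UTRs came from GENCODE M21 (GRCm38) by gene identifier, which matched 86.9% of rows. Since the builds differ, coordinates are given only for sequences of GRCm38.

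The test of each gene used edgeR 4.0.16 under R 4.3.3 (filterByExpr, TMM, quasi-likelihood test of KO over WT with genotype as the only term), with Benjamini-Hochberg adjustment over all tested genes and a threshold of 0.05. An SE is the log2 fold change divided by the square root of F. Alternatives were DESeq2 1.42.0, limma 3.58.1 voom, 2 other scalings, 2 other filters, a replicate block and each library left out. The procedure was tested on simulated counts with a smaller spread than these data, whose common biological coefficient of variation was 0.932. That run does not show how large a difference could be called here. A count of 0 allows up to 3 counts (0.0500 to 0.0626 CPM by library), for counting error only.

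The listed genes, the other gene lists and the tests were chosen with earlier results of these data known. Every listed gene is named with its value in each library; of the other junction genes, the 4 with the smallest p and the 2 most abundant of each list are named. The luminal markers Foxa1 and Kit were picked with their values in view. Genes of the lists that matched no row, among them Jup, Cldn7 and Evpl, were not analysed here. Tables and figures used Python 3.11.15, pandas 2.3.3, numpy 2.4.6 and matplotlib 3.10.9.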

Additional observations from a re-analysis of the deposited data

How the results depend on the processing

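None of the 34 genes was called under any setting that kept all 4 libraries, nor without KO replicate 2, WT replicate 1 or WT replicate 2. Deviations of same-numbered libraries from their group means correlated at 0.01 over 15364 genes. With 2 libraries per genotype and KO replicate 2 apart from the others, this value cannot decide whether the replicate numbers pair the libraries. With a replicate block edgeR called 0 genes, with 79 under 0.05 before adjustment. Over all genes DESeq2 called 4. With a library left out, the count over all genes ran from 0 to 5724, that of the 34 from 0 to 13 and that of the other junction genes from 0 to 24. Each highest count came without KO replicate 1, with a lone KO library assumed to vary like the others. The median of the 34 moved to -0.10 with upper quartile and -0.12 with total count scaling, and ran from -0.05 to 0.07 with a library left out.

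Signs were kept under every setting for 13 of the 34 genes. With upper quartile and total count scaling the log2 fold change turned to -0.02 and -0.04 for Tjp1, -0.04 and -0.06 for Pard3, -0.05 and -0.07 for Prkci, -0.06 and -0.08 for Ctnnd1, -0.10 and -0.12 for Dsg3, and -0.11 and -0.13 for Pkp4. At a mean CPM of 5 or more it was -0.03 for Dsg3 and -0.05 for Pkp4, and with limma voom -0.03 for Dsg3 and 0.00 for Pkp4. With a library left out, 18 genes crossed 0: Tjp3 (-7.58 to 0.57), Cldn3 (-1.12 to 0.35), Cldn4 (-0.56 to 0.97), Cgn (-0.74 to 1.46), Cgnl1 (-0.03 to 2.84), Marveld2 (-1.95 to 0.64), Pard6g (-1.26 to 0.54), Prkci (-0.06 to 0.19), Prkcz (-10.07 to 0.45), Dlg1 (-0.18 to 0.49), Mpp5 (0.00 to 0.47), Epcam (-0.12 to 0.39), Dsg2 (-0.16 to 0.73), Dsg3 (-0.24 to 0.26), Dsc3 (-1.24 to 0.10), Pkp2 (-5.41 to 0.23), Pkp3 (-0.05 to 0.03) and Pkp4 (-0.06 to 0.07). The cause was not tested. Fitted values of genes with 0 counts in KO replicate 2 depend on the prior count and are no bounds.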
